A study of Mus musculus with 108 samples.

Results

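Cerebellins and neurexophilins are 2 small families of secreted proteins that bind the extracellular part of neurexins, the presynaptic receptors that organise synapses. The 6 genes described here, Cbln1, Cbln2, Cbln4, Nxph1, Nxph3 and Nxph4, were chosen by their symbols, and all 6 were found among the 23337 mouse genes of the count table. Expression was measured by RNA sequencing in mouse hippocampus. A first set of 15 libraries came from whole hippocampal tissue at postnatal day 0, 7, 14, 21 and 28 (P0 to P28, 3 independent replicates at each age), and a second set of 93 libraries were single neurons taken in postnatal weeks 3 to 4. The neurons were 14 parvalbumin (PV) cells of CA1 with fast spiking, 19 cholecystokinin (CCK) cells of CA1 with regular spiking, 25 CA1 pyramidal cells, 21 subiculum pyramidal cells with burst firing and 14 with regular firing. The labels give no genotype, strain or treatment for any group, and they tie no neuron to an animal.

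Cerebellins are C1q-domain proteins that form hexamers. Cbln1, best known from cerebellar granule cells, links neurexin on a presynaptic bouton to postsynaptic receptors such as the delta glutamate receptor Grid1. Cbln2 does the same in forebrain circuits, and Cbln4 binds neurexins and also the netrin receptor Dcc and its relative neogenin (Neo1). Neurexophilins are glycoproteins that bind the LNS2 domain of alpha-neurexins tightly, and Nxph1, first purified as a neurexin partner, is known as a gene of inhibitory interneurons. Nxph3 and Nxph4 are relatives with restricted expression in the brain. The cerebellin Cbln3 and the neurexophilin Nxph2 are counted here with the wider pathway.

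In the GRCm38 (mm10) annotation (GENCODE M21), Cbln1 lies at chr8:87468405-87472609 on the minus strand, Cbln2 at chr18:86711110-86718283 on the plus strand and Cbln4 at chr2:172036233-172043466 on the minus strand. Nxph1 spans chr6:8948431-9249032 on the plus strand, Nxph3 lies at chr11:95509845-95514570 on the minus strand and Nxph4 at chr10:127525473-127534559 on the minus strand. The span of Cbln1 overlaps the long non-coding RNA gene Gm2694 on the opposite strand, and an intron of Nxph1 holds the processed pseudogene Gm35736. The labels do not say whether counting used strand, so reads of Cbln1 and of its antisense neighbour may not be separated where the genes overlap, although their annotated exons do not. Values are therefore for whole genes, with exons and untranslated regions counted together.

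The promoter table from RefSeq (GRCm38.p6) holds 2 of the 6 genes, Cbln4 and Nxph1, both of which were found in PV cells. The 250 bases before the start of Cbln4 (chr2:172043467-172043716, minus strand) are shown because Cbln4 was the only member called as higher in any age comparison. Capitals mark the E-box CANNTG, the core to which basic helix-loop-helix factors bind.

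Cbln4: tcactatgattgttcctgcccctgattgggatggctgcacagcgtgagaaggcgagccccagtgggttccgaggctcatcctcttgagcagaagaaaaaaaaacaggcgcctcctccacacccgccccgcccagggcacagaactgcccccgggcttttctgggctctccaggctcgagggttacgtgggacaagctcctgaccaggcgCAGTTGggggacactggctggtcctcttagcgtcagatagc

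The window of Nxph1 (chr6:8949769-8950018, plus strand) precedes the RefSeq start, but it lies inside the gene span given above, in the 5′ untranslated part of the first exon of a longer GENCODE M21 transcript. Its values are therefore not those of sequence upstream of the whole gene. Each of the 2 windows held 1 E-box, and in both its letters were CAGTTG. The stretches around them are shown for comparison, first from Cbln4 (chr2:172043490-172043519, minus strand) and then from Nxph1 (chr6:8949811-8949840, plus strand), with the E-box in capitals.

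Cbln4: cctgaccaggcgCAGTTGggggacactggc

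Nxph1: ggctgccagagaCAGTTGgcctcctaacca

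Outside the E-box these stretches are not alike, and the E-box ends 35 bases before the RefSeq start in Cbln4 and 190 bases before the RefSeq start in Nxph1. Of 32851 promoter windows of the same length, 66.2% held CANNTG and 11.1% held CAGTTG on either strand. The longer motif was looked at only after the letters were seen. Neither window held the homeodomain core TAATTA, present in 4.84% of all windows, or TATAAA, present in 12.4%, on either strand, which says only that these letters are absent from these windows. Both windows were richer in G and C than the median window (60.8% in Cbln4 and 66.8% in Nxph1, against 52.4%), with 11 and 20 CpG dinucleotides against a median of 6.

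Tissue libraries held 2341677 to 13262818 reads in genes and single-neuron libraries 30025 to 11694081, so low members are known less precisely in the cells. The CA1 neurons were amplified with version v3 of the kit and the subiculum neurons and the tissue with v4, and a median of 3447 genes was detected in CA1 cells against 9801 in subiculum cells, so CA1 and subiculum cannot be told apart from the kit. The tissue libraries held 522 to 980 counts per 1000000 gene reads (CPM) of the summed CA1 markers Wfs1, Mpped1 and Fibcd1. This sum did not set CA1 apart from subiculum in the single neurons. Its median was 333 CPM in CA1 pyramidal cells, against 684 CPM in burst-firing and 598 CPM in regular-firing subiculum cells. Summed markers went against the label in 7 of 14 PV cells, 5 of 19 CCK cells and 1 of 25 CA1 pyramidal cells, by absence of inhibitory markers, more pyramidal than inhibitory markers (or the reverse) or more markers of the other interneuron type, and in 0 of 35 subiculum cells. Absence of pyramidal markers was not a criterion, so the rule was laxer for pyramidal cells. CA1 pyramidal cells 1 and 16 held 0 CPM of these markers and were not counted, and cell 1 held 8360 CPM of Pvalb. The levels of Nxph1 and Cbln4 in PV cells and of Cbln2 in CCK cells are given with and without the cells that went against their label. Values and counts of pathway genes are given with all cells only. The myelin gene Mbp, a marker of oligodendrocytes, had a median of 3252 CPM (79.1 to 20288) in burst-firing and 1225 CPM (141 to 9900) in regular-firing subiculum cells. In PV cells its median was 40.9 CPM (0 to 6885), in CCK cells 23.9 CPM (0 to 1070) and in CA1 pyramidal cells 5.73 CPM (0 to 3751). Its part in the results was not tested.

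In whole hippocampus, 5 of the 6 members passed the test across ages, where 76.4% of all tested genes did. Cbln4 peaked at P7, Cbln1 was highest at P7 and low from P14 on, Cbln2 declined from birth to the third week, and Nxph4 was highest at birth. Nxph1 passed it within a narrow range of levels, and Nxph3 was the member that did not pass. Levels are CPM scaled by the trimmed mean of M values (TMM), and tests are edgeR's quasi-likelihood test with Benjamini-Hochberg adjustment over 14737 genes, called at an adjusted p under 0.05. In tissue, fewer cells of a type and less RNA per cell cannot be told apart. The labels call replicates independent without naming animals, so p-values measure the spread between these samples.

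**Figure D1:**
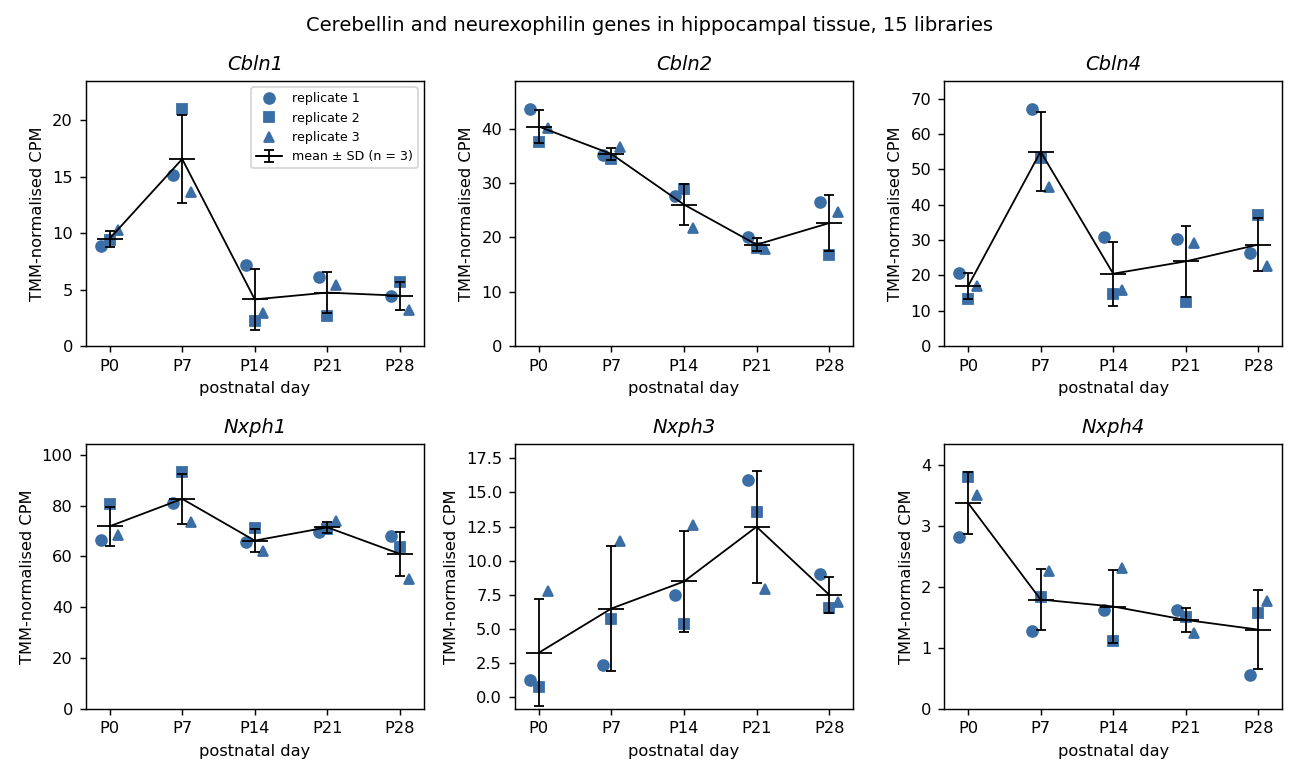
Level of each of the 6 genes in whole hippocampus (TMM-scaled CPM, linear axes that differ between panels) at P0, P7, P14, P21 and P28; marks are the 3 replicates, and the black line joins the means with bars of 1 SD. Cbln4 and Cbln1 peak at P7, Cbln2 declines, Nxph1 stays between 51.3 and 93.2 CPM, and Nxph3 replicates scatter from 0.744 to 7.74 CPM at P0.

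Cbln4 stood at 20.6, 13.2 and 17.04 CPM at P0, and at 66.9, 53.1 and 45.0 CPM at P7. It was at 30.9, 14.6 and 15.9 CPM at P14, at 30.4, 12.4 and 29.1 CPM at P21, and at 26.3, 37.2 and 22.6 CPM at P28. All P7 libraries lay above all libraries of the other ages, while P0, P14, P21 and P28 formed an order in which neighbours overlapped. Between P7 and P0 Cbln4 rose by 1.74 ± 0.37 on the log2 scale (SE, edgeR adjusted p = 0.00278). It was the only 1 of the 6 members called there, among 38.8% of all tested genes called and 21.0% that rose. Between P14 and P7 it fell by 1.37 ± 0.35 (SE, adjusted p = 0.00736). At P28 all 3 libraries remained above all 3 of P0, yet the difference of 0.82 ± 0.37 (SE) missed the threshold (adjusted p = 0.068), and it passed without P14 replicate 1 (adjusted p = 0.0283), without P21 replicate 2 (0.0157) or with the 6 libraries of P28 and P0 fitted alone (0.00225).

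Cbln1 had 8.88, 9.39 and 10.3 CPM at P0, 15.1, 21.0 and 13.6 CPM at P7, and 7.22, 2.22 and 2.97 CPM at P14. It then stood at 6.10, 2.67 and 5.44 CPM at P21 and at 4.44, 5.71 and 3.24 CPM at P28. P7 lay above P0 and P0 above each later age with no overlap, while P14, P21 and P28 overlapped. The fall between P14 and P7 was 1.89 ± 0.35 on the log2 scale (SE, edgeR adjusted p = 2.07e-04), and that between P28 and P0 was 1.11 ± 0.35 (SE, adjusted p = 0.00912). The P7 level missed the threshold against P0 (log2 difference 0.77 ± 0.33, SE, adjusted p = 0.0726). It passed when those 6 libraries were fitted alone (adjusted p = 0.00832), without P14 replicate 1 (0.0299) and without P21 replicate 2 (0.04997).

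Cbln1 and Cbln4 varied alike between replicates of an age: the same library was the highest for both genes at 3 of the 5 ages and the lowest for both at 4. P14 replicate 1 was the highest P14 library for both. It also held 196 CPM of the summed thalamic markers Tcf7l2, Prkcd and Lef1, against 83.9 and 80.1 CPM in the other P14 libraries and 44.0 to 87.4 CPM at the other ages. Without this library the falls between P14 and P7 were larger: Cbln1 fell by 2.60 and Cbln4 fell by 1.82 on the log2 scale. At P28 the library with the highest thalamic sum (replicate 2, 87.4 CPM) was also the highest for both genes. At P21 (replicate 2, 78.9 CPM) and P7 (replicate 3, 70.4 CPM) it was the lowest for both. At P0 (replicate 2, 56.3 CPM) it was the lowest for Cbln4. Whether thalamic RNA had a part in the levels of either gene was not tested.

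Cbln2 had 43.6, 37.6 and 40.1 CPM at P0, 35.1, 34.4 and 36.6 CPM at P7, and 27.7, 28.9 and 21.7 CPM at P14. At P21 it was at 20.01, 18.1 and 17.9 CPM and at P28 at 26.5, 16.7 and 24.7 CPM. P0 exceeded P7 and P7 exceeded every later age without overlap, while P14, P28 and P21 overlapped as neighbours. Cbln2 fell by 0.46 ± 0.15 on the log2 scale between P14 and P7 (SE, edgeR adjusted p = 0.0203) and by 0.46 ± 0.15 between P21 and P14 (SE, adjusted p = 0.0374). Over the whole span from P0, the fall at P28 was 0.83 ± 0.15 (SE, adjusted p = 7.18e-05). Both stepwise calls depended on single libraries: that between P14 and P7 was lost without P14 replicate 3 (adjusted p = 0.120) or P7 replicate 3 (0.0659), and that between P21 and P14 without P14 replicate 1, P14 replicate 2 or any 1 P21 library (0.0549 to 0.129).

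Nxph1, the neurexophilin of interneurons, had 66.6, 80.6 and 68.4 CPM at P0, 81.04, 93.2 and 73.7 CPM at P7, 65.5, 71.0 and 62.1 CPM at P14, 69.7, 70.8 and 73.9 CPM at P21, and 68.1, 63.6 and 51.3 CPM at P28. In the order of levels each age overlapped the next, although P7 lay above P14 in all libraries. The fall of 0.32 ± 0.11 on the log2 scale between P14 and P7 was called (SE, edgeR adjusted p = 0.0310), but not without P14 replicate 1 (0.0795), P14 replicate 3 (0.111), P7 replicate 1 (0.0578) or P7 replicate 2 (0.178). The P28 level did not differ from P0 past the threshold (log2 difference -0.25 ± 0.11, SE, adjusted p = 0.0599). It did without P0 replicate 1 (adjusted p = 0.0438), P28 replicate 1 (0.0263) or P7 replicate 3 (0.0455). Over the same ages the inhibitory markers Gad1, Gad2 and Slc32a1 summed to 882, 796 and 780 CPM at P28, against 324, 295 and 263 CPM at P0, whereas the Nxph1 levels of P28 and P0 overlapped. Lhx6, a factor of interneurons from the medial ganglionic eminence, went the other way, with 29.1, 27.1 and 30.8 CPM at P28, against 75.4, 105.2 and 102.6 CPM at P0, and fell by 1.72 ± 0.15 on the log2 scale (SE, edgeR adjusted p = 3.33e-09).

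Nxph4 was the lowest member from P7 on, also per kilobase of exon, with 4 to 43 reads in a library. Its levels were 2.82, 3.81 and 3.505 CPM at P0 and 0.554, 1.57 and 1.77 CPM at P28, with 1.11 to 2.31 CPM at the ages between. All P0 libraries lay above all others, and later ages overlapped. It fell by 1.34 ± 0.37 on the log2 scale between P28 and P0 (SE, edgeR adjusted p = 0.0034). The markers of Cajal-Retzius cells (Trp73, Reln, Lhx1 and Lhx5), neurons that are lost in the weeks after birth, summed to 74.9, 110.96 and 83.3 CPM at P28, against 375, 403 and 412 CPM at P0, beside the falls of Cbln1, Cbln2 and Nxph4, and their part in these was not tested.

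Nxph3 had 1.21, 0.744 and 7.74 CPM at P0, 2.31, 5.70 and 11.4 CPM at P7, and 7.46, 5.33 and 12.6 CPM at P14. It had 15.9, 13.6 and 7.93 CPM at P21 and 9.01, 6.53 and 6.94 CPM at P28. Replicate 3 of P0 stood above the other 2 P0 libraries, so that P28 and P0 overlapped, as did every age with the next in the order of levels. The difference between P28 and P0 was 0.95 ± 0.69 on the log2 scale and was not called (SE, edgeR adjusted p = 0.245). Without P0 replicate 3 it was 3.10 (adjusted p = 0.00143), and the difference between P7 and P0 became 3.05 (adjusted p = 0.00515) in place of 0.90 ± 0.71 (SE, adjusted p = 0.348). P7 replicate 3 moved this value the other way, to 0.10 when left out (adjusted p = 0.946), and without replicate 3 of both ages it was 2.25 (adjusted p = 0.0200). This last setting was chosen after the values were seen.

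**Figure D2:**
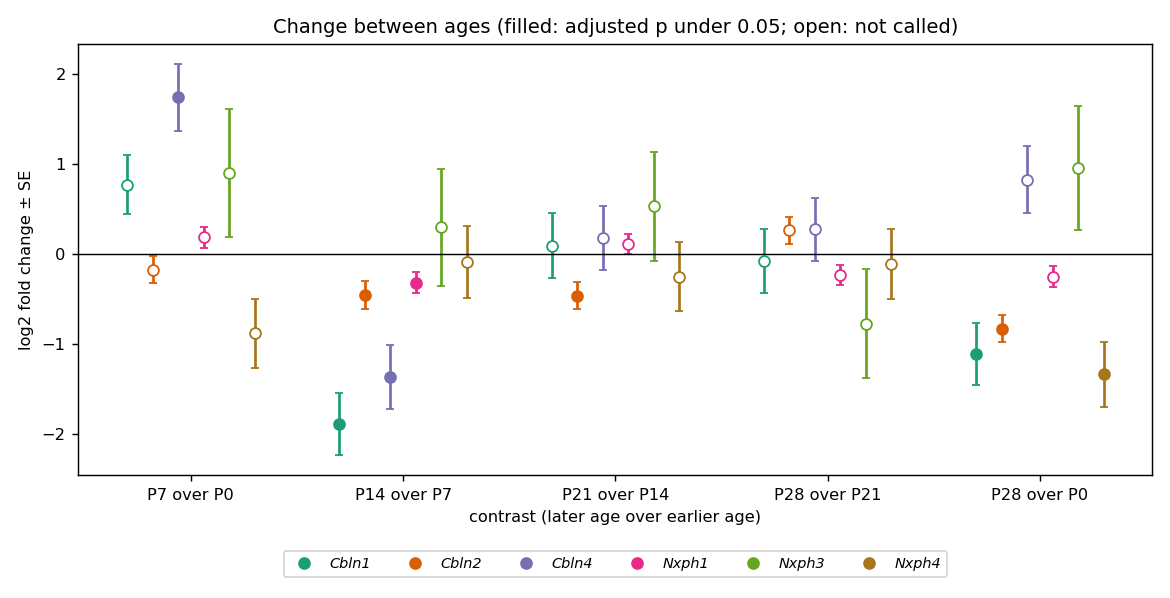
Log2 fold change of each of the 6 genes between successive ages and between P28 and P0 (points, with bars of 1 SE from edgeR); filled points passed the adjusted p of 0.05 over all tested genes. Cbln4 is the only filled point between P7 and P0, 4 genes fell between P14 and P7, and Cbln1, Cbln2 and Nxph4 fell between P28 and P0.

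By interval, 4 of the 6 members fell between P14 and P7 (Cbln1, Cbln2, Cbln4 and Nxph1) and 0 rose, where 42.2% of all tested genes were called and 20.5% fell. Their median difference was -0.39 on the log2 scale, against 0.00 over all tested genes. Beside these falls, the myelin gene Mbp stood at 4648, 5355 and 4750 CPM at P14, against 125.2, 126.9 and 156.6 CPM at P7, and the subiculum markers Fn1, Slc17a6 and Nts summed to 253.6, 194.4 and 207.3 CPM at P14, against 448, 402 and 339 CPM at P7. Their part in the falls was not tested. Between P21 and P14 1 member (Cbln2) fell, where 20.5% of genes were called and 10.6% fell. None of the 6 was called by edgeR between P28 and P21, where 7.83% of genes were, and 0 had an unadjusted p under 0.05. Between P28 and P0 3 members fell (Cbln1, Cbln2 and Nxph4) and 0 rose, beside 64.2% of genes called and 31.3% that fell, so that the share called (3 of 6) lay below that of all genes. The median difference of the members was -0.54 there, against 0.00 over all tested genes, and 0.48 between P7 and P0, against 0.02. Across all 5 ages together 5 of 6 were called, all but Nxph3 (edgeR adjusted p = 0.232), beside 76.4% of all genes.

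Per kilobase of exon, which allows genes to be set side by side, the order of levels changed with age. At P0 Nxph1 (15.1 CPM per kb) and Cbln2 (14.0) led, followed by Cbln4 (5.84), Cbln1 (3.13), Nxph4 (2.02) and Nxph3 (1.54). At P7 Cbln4 reached 18.96 CPM per kb beside 17.4 for Nxph1 and 12.2 for Cbln2. At P28 the order was Nxph1 (12.8), Cbln4 (9.89), Cbln2 (7.82), Nxph3 (3.57), Cbln1 (1.47) and Nxph4 (0.776).

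The other genes of the neurexin-ligand pathway, a list of 29 of which 27 could be tested, moved in both directions: 13 rose and 6 fell between P28 and P0, with a median difference of 0.33 on the log2 scale, against 0.00 over all tested genes. Of all tested genes 64.2% were called there, 32.9% rising and 31.3% falling, so the total of 19 of 27 lay near the background. The C1q-like ligands C1ql1, C1ql2 and C1ql3, relatives of the cerebellins that bind neurexin-3 and kainate or adhesion receptors, all rose, by 0.89 ± 0.27, 5.34 ± 0.27 and 2.76 ± 0.15 (SE). The family relatives fell: Nxph2 by 1.56 ± 0.29 and Cbln3 by 3.43 ± 0.59 (SE). Cbln3 averaged 0.153 CPM at P28 and 1.70 CPM at P0. Among the receptors, the delta receptor Grid1 rose (log2 difference 0.61 ± 0.18) together with Nrxn3, while Dcc and Neo1, the partners of Cbln4, fell by 2.10 ± 0.13 and 1.71 ± 0.07 along with Nrxn2 (SE, edgeR). Of 15 other neurexin ligands tested, 8 rose and 1, dystroglycan (Dag1), fell; the secreted Fam19a1 (2.30 ± 0.13) and the carbonic anhydrase-related Ca11 (1.5 ± 0.12) and Ca10 (1.27 ± 0.17) rose most.

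**Figure D3:**
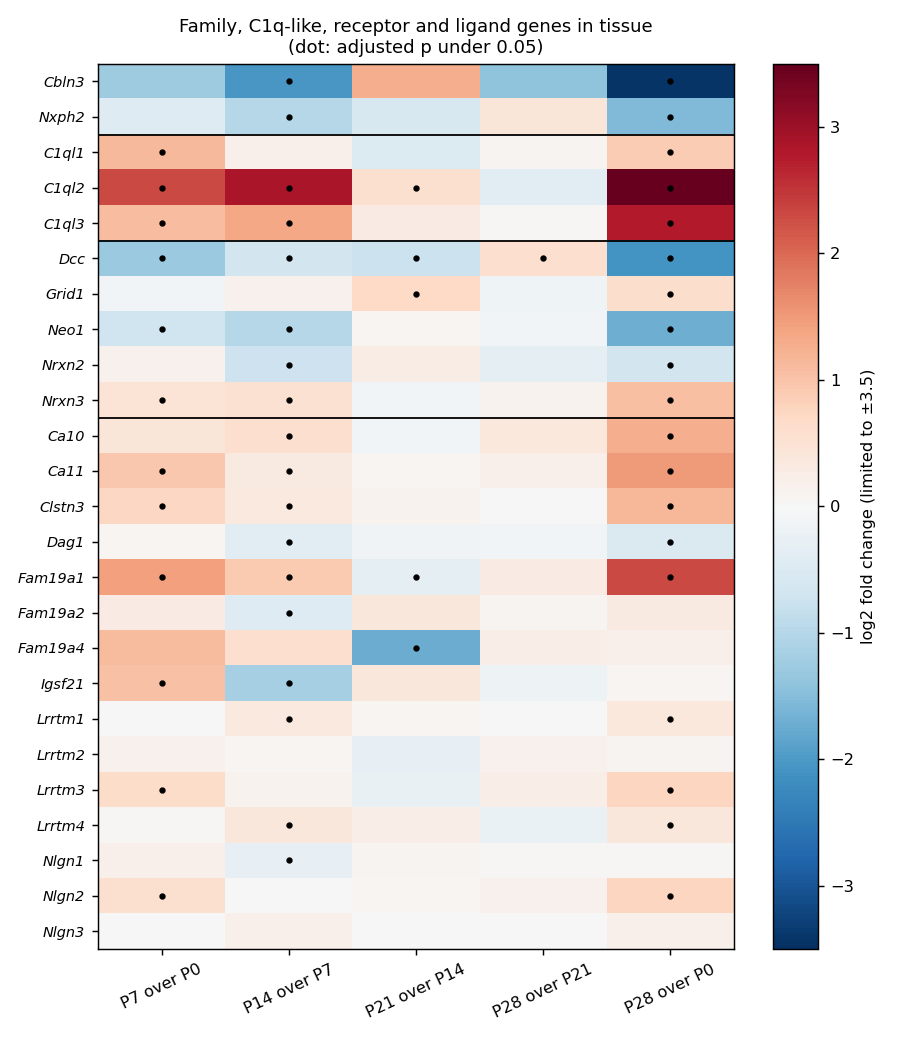
Log2 fold change in whole hippocampus of genes of the pathway list (rows, grouped by role) between successive ages and between P28 and P0 (columns); colour runs from blue (lower at the later age) to red (higher) and is limited to ±3.5, and a dot marks an adjusted p under 0.05. In the P28 over P0 column C1ql2 (5.34) and C1ql3 (2.76) are red, and Cbln3 (-3.43), Dcc (-2.10) and Neo1 (-1.71) are blue.

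Between P7 and P0, 10 of the same 27 genes rose and 2 fell, where 21.0% of all tested genes rose and 17.8% fell. Between P14 and P7, 9 rose and 10 fell, against 21.7% and 20.5% of all tested genes. Between P21 and P14, 2 rose and 3 fell, where 9.93% of all tested genes rose and 10.6% fell, which is near the background. Between P28 and P21 only Dcc was called, as higher at P28 (log2 difference 0.60), where 7.83% of all tested genes were called and 4.49% rose. Genes with the most similar age profile in tissue were found by the root mean square (RMS) difference of centred log2 CPM over 5 ages. For Cbln4 they included Crabp2 and Capn12 (RMS 0.12 each), and for Cbln1 they were Nox4, Nlrc3 and Tshz3 (0.10 to 0.13), against a range of 2.09 in the profile of Cbln1 itself. For Cbln2 they were Ascc3, Sox5 and Stradb (0.03 to 0.04), and for Nxph4 Frmd4b, Ddx19a and Zfp560 (0.05 to 0.07). Likeness to the flat profile of Nxph1 (Ssr2, Ier3ip1 and Notum) or the scattered one of Nxph3 (Itgb2, Tpd52l1 and Acot4) says little beyond that shape.

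In single neurons the members were spread unevenly. Nxph1 was high in most PV cells, Cbln4 was found in some of the same PV cells, and Cbln2 in 9 of 19 CCK cells. CA1 pyramidal cells held almost no read of any member. Subiculum pyramidal cells held reads of all 6 members, from 0.0458 CPM (Nxph4, burst-firing) to 38.3 CPM (Nxph1, regular-firing). Cbln2 stood at 24.2 CPM in CCK cells, and at 10.9 CPM in burst-firing and 8.54 CPM in regular-firing subiculum cells. CCK and subiculum cells were not compared by the rule below. Since cells are not tied to animals, each type counts as 1 sample: values are summed CPM with 95% exact intervals that cover counting error only, no test was made, and a difference is stated only where both the summed and the per-cell mean CPM differed at least 2-fold with at least 5 CPM in the higher type.

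**Figure D4:**
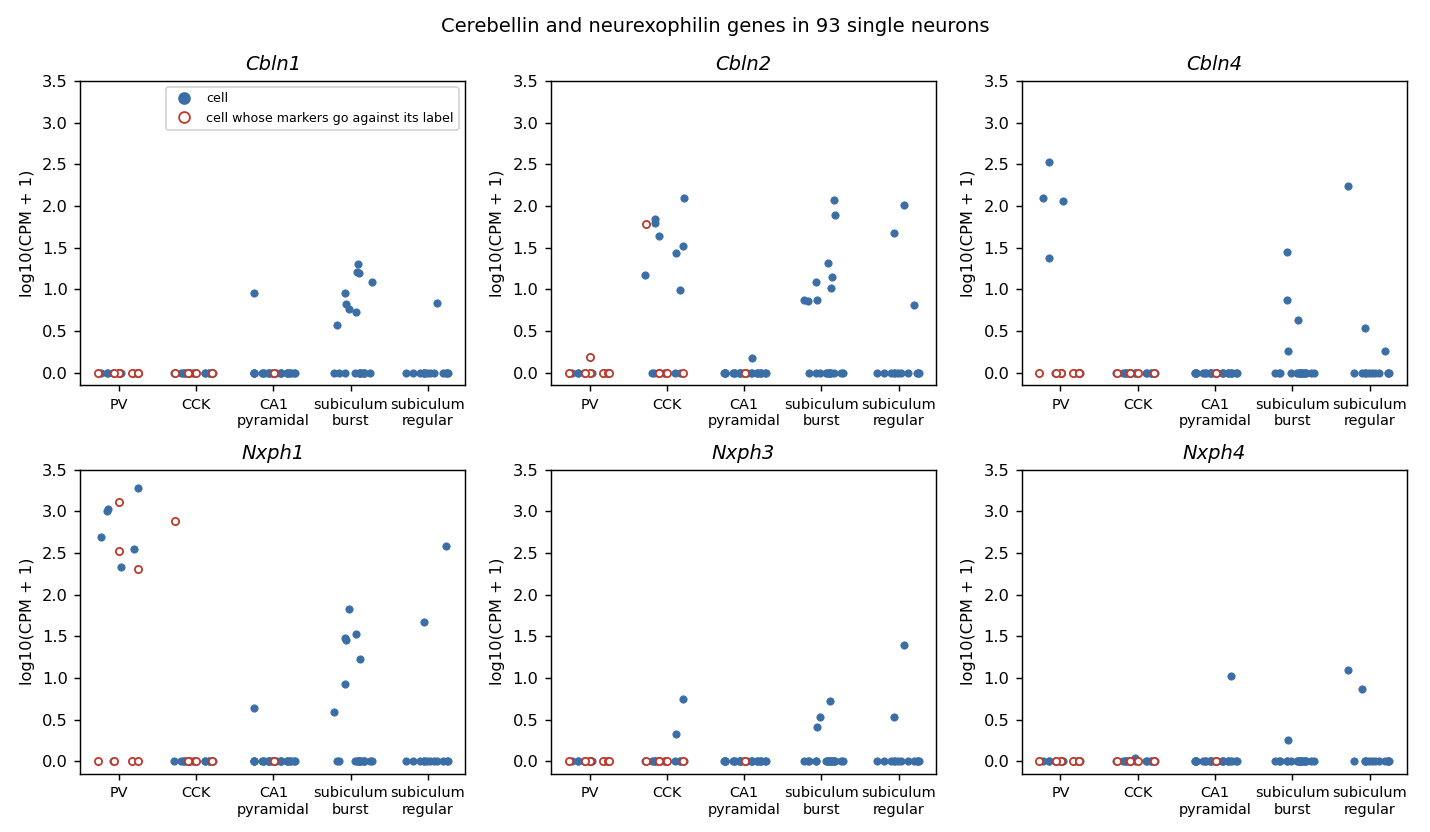
Level of each of the 6 genes in every single neuron (log10(CPM + 1) axis), by labelled type in the order PV, CCK, CA1 pyramidal, subiculum burst and subiculum regular; each point is 1 cell, and open red points are cells whose markers went against their label. Nxph1 lies above 0 in 9 of 14 PV cells and Cbln2 in 9 of 19 CCK cells, while CA1 pyramidal cells lie almost all at 0.

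Nxph1 had 16003 reads in PV cells, or 525 CPM (517 to 533), and was found in 9 of 14 cells. Over the PV cells its lowest, median and highest values were 0, 275 and 1924 CPM. In CCK cells it had 2242 reads (33.8 CPM), all of them in cell 5, which held 763 CPM; the other 18 had 0. In CA1 pyramidal cells there was 1 read in 25 cells. The ratio of PV to CCK cells was 15.5 (14.8 to 16.2), and that of PV to CA1 pyramidal cells was 16551 (2970 to 653761), a wide interval because of the single read. Without their highest cell, PV cells still held 14337 reads. The same step takes out CCK cell 5 and the CA1 pyramidal cell with the single read, so it sets both of these types to 0 reads in advance. With a floor of 3 reads in place of 0, the ratios were then 10219.5 to CCK cells and 5038 to CA1 pyramidal cells. These are not lower bounds on a difference between the types. In the PV cells that carried ERCC spike-ins, Nxph1 stood at 531 CPM (6 of 9 cells), and in those without them at 514 CPM (3 of 5).

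Thinned to 200000 reads each, 9 of 13 PV cells (69.2%) held Nxph1, against 1 of 19 CCK cells and 1 of 23 CA1 pyramidal cells. The median depths were 1114365.5 reads in PV and 1171579 in CA1 pyramidal cells, and the median numbers of genes detected were 4511 in PV and 2784 in CA1 pyramidal cells. The part of this difference in detected genes was not tested. Without the cells whose markers went against the label, Nxph1 was found in 6 of 7 PV cells (815 CPM) and in 0 of 14 CCK cells, a ratio of at least 1.53e+04-fold. CCK cell 5 held 2858 CPM of Gad1 and 16.3 CPM of Lhx6, with only 0.3 CPM of Cnr1, the cannabinoid receptor of CCK interneurons.

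Cbln4 had 2610 reads in PV cells (85.6 CPM, 82.3 to 88.9) and was found in 4 of 14 of them: cell 4 (340 CPM), cell 7 (125.4), cell 13 (112.8) and cell 14 (23.04). Cell 4 alone gave 81.2% of these reads, and the other 3 positive cells held 490 reads. There was no read in 19 CCK cells, which, taking 3 cells as the limit that a count of 0 allows, leaves room for up to 15.8% of such cells with a read, or in 25 CA1 pyramidal cells, where the same limit is 12%. These limits cover counting error only and treat the cells as if independent, although they are not tied to animals. With a floor of 3 reads in place of 0 over the type, the ratio of PV to CCK cells was 1891 and that of PV to CA1 pyramidal cells 900. Without the highest cell of each type these ratios were 411 and 212.1. The floor covers the counting of reads in these cells only, so none of these ratios is a lower bound on a difference between the types. In the spiked PV cells Cbln4 stood at 110.8 CPM (2 of 9 cells) and in the unspiked at 40.9 CPM (2 of 5). All 4 cells also held Nxph1 and Pvalb, and 3 held Lhx6. None of the 4 went against its label, and without the cells that did, Cbln4 stood at 169 CPM in 4 of 7 PV cells.

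**Figure D5:**
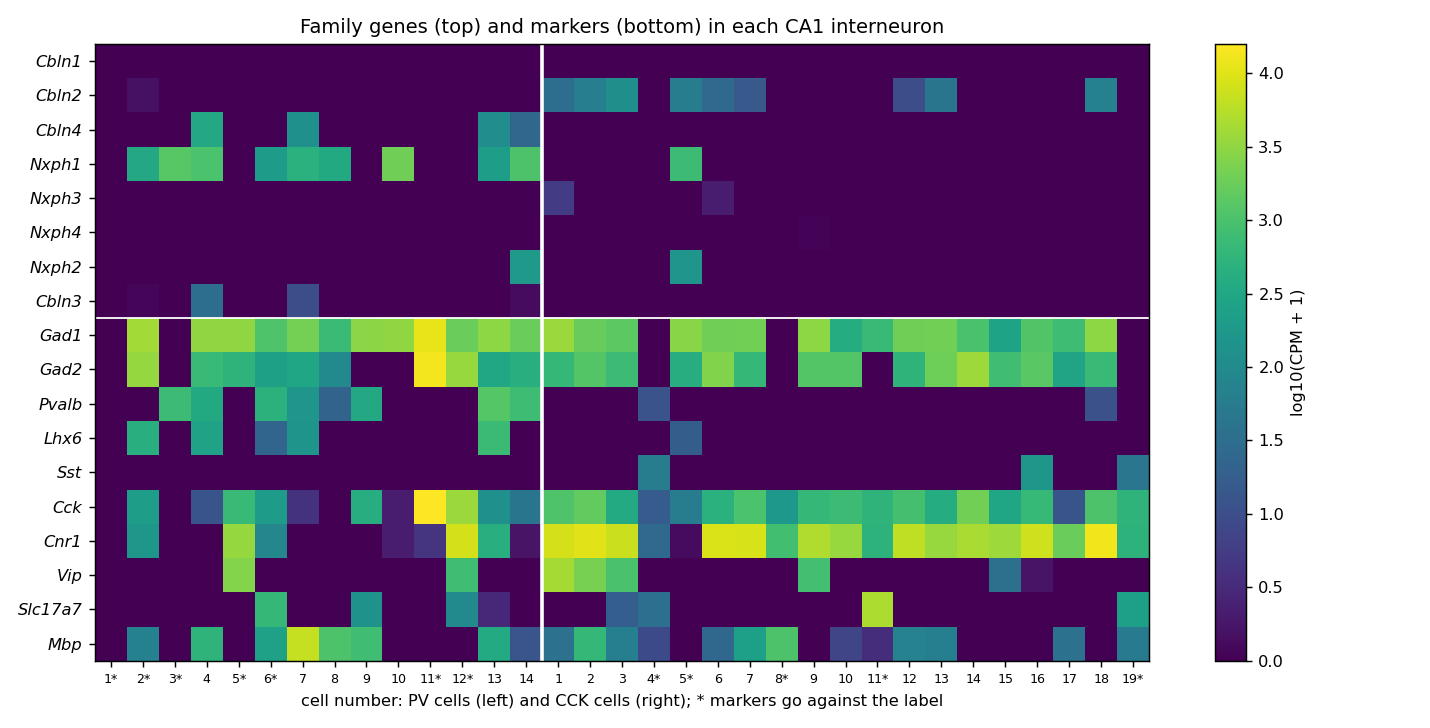
Level of the 6 genes with Nxph2 and Cbln3 (upper rows) and of marker genes (lower rows) in each PV cell (left of the white line) and CCK cell (right of it); colour gives log10(CPM + 1), and an asterisk marks cells whose markers went against their label. The 4 PV cells with Cbln4 are among the 9 with Nxph1, and Cbln2 is spread over 9 CCK cells.

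Within the PV cells, Nxph1 was found beside reads of markers of more than 1 interneuron type, although the cells richest in CCK markers held none. All 5 cells with Lhx6 and 7 of the 8 with Pvalb held it, and so did 7 of the 11 with Cck and 5 of the 8 with Cnr1, markers of CCK interneurons. The 2 cells with reads of Vip, a neuropeptide of other interneurons, held none. These counts take 1 read as found, and over all PV cells Nxph1 was found in 9 of 14. Cells 5, 11 and 12 had the highest sums of Cck, Cnr1 and Vip (6719, 15692 and 13039 CPM) and 0 CPM of Nxph1. In the cells with Nxph1 this sum was 0 to 547 CPM. The Nxph1 levels were 335, 1286, 1011, 203.5, 489, 355, 1924, 213.96 and 1064 CPM in cells 2, 3, 4, 6, 7, 8, 10, 13 and 14. The other 5 PV cells had 0 CPM. Nxph2 was found only beside Nxph1, in PV cell 14 (184 CPM) and CCK cell 5 (151 CPM). Cbln3 reached 6.69 CPM over the PV cells, with 97.5% of its reads in 1 cell.

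Cbln2 was the only cerebellin of the 3 with reads in CCK cells, with 1604 reads (24.2 CPM, 23.02 to 25.4) in 9 of 19 cells, at 8.82 to 123.9 CPM where present. PV cells held 4 reads in 1 cell and CA1 pyramidal cells 1 read in 1 cell. The level in PV cells was lower than in CCK cells by a ratio of 184 (71.9 to 678), and CCK cells exceeded CA1 pyramidal cells by a ratio of 763 (136.8 to 30158). Thinned to 200000 reads, 9 of 19 CCK cells (47.4%) still held Cbln2. All 9 also had Cnr1, as did every CCK cell, 3 of them had Vip, and 8 of the 14 cells left without those that went against their label held it (25.4 CPM). In spiked CCK cells it stood at 18.3 CPM (2 of 6 cells) and in unspiked at 29.2 CPM (7 of 13). Without the highest cell of each type, the ratio of CCK to CA1 pyramidal cells was 217.2, with the floor of 3 reads in place of 0 in CA1 pyramidal cells.

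Read against the background, 3 of the members reached 5 CPM in PV or CCK cells and all passed the 2-fold rule, Nxph1 and Cbln4 higher in PV cells and Cbln2 lower, where 39.7% of all measured genes passed, 15.3% higher and 24.4% lower. Between PV and CA1 pyramidal cells, both measured members passed (Nxph1 and Cbln4), where 52.5% of genes did. Between CCK and CA1 pyramidal cells both passed as well (Cbln2 and Nxph1), where 47.8% of genes did; the ratio for Nxph1, 1067 (191 to 42146), rested on CCK cell 5. A gene enters such a count only through the type where it is high, so these counts are descriptions.

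Cbln1, Nxph3 and Nxph4 were near the floor in CA1 neurons. Cbln1 had 0 reads in PV and CCK cells and 19 in 1 CA1 pyramidal cell, Nxph3 had 0 reads in PV cells, 27 in 2 CCK cells and 0 in CA1 pyramidal cells, and Nxph4 had 3 reads in all CA1 cells. A read of any member was found in 9 of 14 PV cells and 10 of 19 CCK cells, against 4 of 25 CA1 pyramidal cells. At this depth the 3 genes were not detectable in most CA1 cells, which does not show that they are absent.

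In the subiculum, a read of any member was found in 17 of 21 burst-firing and 8 of 14 regular-firing cells. Cbln1 had 84 reads in 9 burst-firing cells (3.85 CPM over the type, 2.69 to 19.1 CPM where present), against 9 reads in 1 regular-firing cell (0.545 CPM), a ratio of 7.07 (3.55 to 15.99), with both types under 5 CPM. Nxph3 had 8 reads in 3 burst-firing cells (0.367 CPM), against 28 reads in 2 regular-firing cells (1.70 CPM). Nxph4 had 1 read in burst-firing cells (0.0458 CPM), against 18 reads in 2 regular-firing cells (1.09 CPM). Both neurexophilins were thus under 5 CPM in both types as well. After thinning to 200000 reads Cbln1 was still found in 8 of 21 burst-firing cells (38.1%). Cbln2 stood at 10.9 CPM in burst-firing cells (9 of 21 cells, up to 115.8 CPM), against 8.54 CPM in regular-firing cells (3 of 14, up to 102.5 CPM), a ratio of 1.27 (1.03 to 1.58) that did not reach 2-fold. Without the highest cell of each type it was 4.97, since regular-firing cells then held 26 reads, and burst-firing cells 179.

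Cbln4 and Nxph1 were lower in burst-firing than in regular-firing cells, and both differences rested on 1 cell each. Cbln4 had 2.48 CPM in burst-firing cells (54 reads in 4 of 21 cells), against 12.2 CPM in regular-firing cells (3 of 14), a ratio of 0.203 (0.148 to 0.276). Nxph1 had 194 reads in burst-firing cells (8.89 CPM, 7 of 21), against 632 in regular-firing cells (38.3 CPM, 2 of 14), a ratio of 0.232 (0.197 to 0.273). Regular-firing cell 10 held 174 CPM of Cbln4, with 0 to 2.41 CPM in the others, and cell 14 gave 84.3% of the Nxph1 reads of its type. Without the highest cell of each type the ratios turned round, to 5.29 for Cbln4 and 1.18 for Nxph1.

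Regular-firing cell 14 held 380 CPM of Nxph1 and also 227.7 CPM of Gad1, 418 of Gad2, 248 of Sst and 86.4 of Lhx6, beside 751 CPM of the glutamate transporter Slc17a7. Inhibitory markers (Gad1, Gad2 and Slc32a1 summed) had a median of 43.7 CPM (0 to 226.3) in burst-firing and 31.4 CPM (0 to 660) in regular-firing cells, against 3050 CPM in PV cells. Whether RNA of interneurons had a part in the subiculum levels of Nxph1 and Cbln4 was not tested. By the 2-fold rule, 2 of the 3 members measured were lower in burst-firing cells, beside 13.5% of all genes that passed and 7.69% that were lower.

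CA1 pyramidal cells had less of 3 members than the 35 subiculum cells as 1 group: Cbln2 by a ratio of 311 (55.5 to 12318), Nxph1 by 680 (121.7 to 26878) and Cbln4 by 69.9. The ratio for Cbln4 takes the floor of 3 reads in place of 0 in CA1 pyramidal cells. Here 52.5% of all genes passed the 2-fold rule and 34.3% were lower in CA1 pyramidal cells, and the kit cannot be told apart from the region. Without the highest cell of each type, Cbln4 no longer reached 5 CPM in subiculum cells, and the ratios of CA1 pyramidal to subiculum cells were 0.012 for both Cbln2 and Nxph1, with 0 reads in CA1 pyramidal cells and the floor of 3 reads in their place.

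Neurexins, the receptors of these ligands, had reads in all 5 types. Nrxn3 stood at 681 CPM in PV, 1299 in CCK, 190 in CA1 pyramidal, 256 in burst-firing and 134.03 in regular-firing cells, and was higher in PV than in CA1 pyramidal cells by a ratio of 3.59 (3.49 to 3.70; 2.09 with each cell weighted equally) and in CCK than in CA1 pyramidal cells by 6.85 (6.68 to 7.04). Nrxn2 stood at 14.7, 5.59, 24.03, 42.4 and 34.4 CPM in the same order of types, and 1 cell held 68.5% of its reads in PV cells and 1 cell 72.03% in CA1 pyramidal cells. Neo1 had 5.44 CPM in PV and 7.46 in CCK cells, against 96.7 in CA1 pyramidal cells. Of the 29 pathway genes, 23 reached 5 CPM in PV or CCK cells, of which 8 were higher and 3 lower in PV than in CCK cells, where 39.7% of all measured genes passed the 2-fold rule. Against CA1 pyramidal cells, 11 of 23 were higher and 4 lower in PV cells, where 52.5% of all measured genes passed, and 7 of 20 were higher and 6 lower in CCK cells, where 47.8% did.

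Per kilobase of exon, Nxph1 stood at 110 CPM per kb and Cbln4 at 29.5 in PV cells, and Cbln2 at 8.36 and Nxph1 at 7.11 in CCK cells. The genes whose summed log2(CPM + 1) over the 5 types was most like that of Cbln4 were Filip1, Slc25a15 and Cacna2d2 (RMS 0.19 to 0.49). For Cbln2 they were Tmem90a, Jam2 and Bcorl1 (0.18 to 0.24), and for Nxph1 Lypd6, Tcerg1l and Dchs1 (1.03 to 1.13). These likenesses are over 5 types and share the libraries.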

How the data were processed

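Whole-gene read counts were deposited by the authors for 108 libraries (15 tissue, 93 single neurons). Per the submitters' processing notes, which give no roles, the tools were HTSeq, STAR, cutadapt, Trim Galore and FastQC, with mm10 and hg19 as builds; strand use is not given in the sources used here. The 92 ERCC spike-in rows were left out. The members and lists were chosen with earlier results of these data known.

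Of 19485 genes with a tissue read, 14737 passed edgeR's low-count filter and were fitted over all 15 libraries with age as the factor (edgeR 4.0.16, limma 3.58.1, R 4.3.3; TMM, quasi-likelihood test, adjusted p under 0.05, prior count 2). Cells were summed by type without a test, with exact Poisson or Clopper-Pearson intervals at 95% and a floor of 3 reads; both cover counting error only, since reads were not tied to molecules. No doublet caller or cell filter was applied. Thinning to 200000 reads left out 4 cells. Cell work used Python 3.11.15, numpy 2.4.6, pandas 2.3.3 and scipy 1.17.1. Genes named were the 6 members, the pathway list, the 3 genes most like each member, and markers beside a result. Alternatives were DESeq2 1.42.0, other filters, thinned libraries, a replicate block and libraries or cells left out. Scripts were tested on simulated data. The promoter, annotation and exon lengths came from RefSeq GRCm38.p6 and GENCODE M21. Some genes of the lists are not reported here.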

Additional observations from a re-analysis of the deposited data

How the results depend on the processing

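Members' calls under DESeq2 were those of edgeR. With libraries thinned to the smallest, genes called between P21 and P14 were 1696 in place of 3026 and between P28 and P21 387 in place of 1154; leaving out single libraries gave 1858 to 3244 and 481 to 1403. Leaving out replicate 3 of both P0 and P7 gave 3474 genes in place of 5712 between P7 and P0. Thinning removed reads and also changed the genes tested (12833 in place of 14737), while leaving out libraries changed the number of replicates. The part of each in these counts was not tested.

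Members called between P7 and P0 (1) became 3 with the 6 libraries alone and 2 without replicate 3 of both (1 to 2 without single libraries). Between P14 and P7 (4) they were 2 to 4. Between P21 and P14 (1) they were 0 with 6 libraries alone, thinned or without replicate 3 of both (0 to 1 without single libraries). Between P28 and P0 (3) they became 5 with a replicate block, 1 thinned (Cbln1 lost, adjusted p = 0.0777; Nxph4 not tested) and 5 without replicate 3 of both. The labels do not say that replicate numbers pair libraries. Correlations of same-numbered P28 and P0 libraries were 0.137, 0.104 and 0.0372, and each P28 library correlated best with its own number. Correlations of same-numbered P28 and P21 libraries were -0.275, -0.0287 and -0.0955, and each P28 library correlated best with another number. The 5 members called with the replicate block included Cbln4 (adjusted p = 0.0405) and Nxph1 (0.0400).

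In cells, members past 2-fold between CCK and CA1 pyramidal cells (2) became 1 without the highest cell, in spiked cells and without cells that went against their label. Between burst-firing and regular-firing cells (2) they became 0 without the highest cell, where Cbln4 (5.29) and Nxph1 (1.18) reversed. Thinned to 100000 in place of 200000 reads, the shares with Cbln1 in regular-firing (7.69%) and CA1 pyramidal cells (4.35%) and with Nxph1 in CA1 pyramidal cells (4.35%) became 0, and at 500000 those with Nxph1 and Nxph4 in CA1 pyramidal cells became 0. The settings without replicate 3 of both and without cells against their label were chosen after seeing the data. The causes of these changes were not tested beyond what leaving out reads, cells or libraries shows.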

Other observations

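Summed levels of C1ql2 and C1ql3, C1q-like relatives of the cerebellins, differed between the subiculum types, where 13.5% of all measured genes passed the 2-fold rule. C1ql2 had 8.75 CPM in burst-firing subiculum cells (95% counting interval 7.56 to 10.1), against 1.03 CPM in regular-firing cells (0.599 to 1.65), while C1ql3 had 13.5 CPM (11.98 to 15.1) in burst-firing and 40.6 CPM (37.6 to 43.8) in regular-firing cells. Neither had a read in PV or CCK cells. C1ql1 stood at 11.3 CPM in PV cells and 0.317 CPM in CCK cells. The secreted neurexin ligand Fam19a2 had 308 CPM in PV cells and 24.6 CPM in CCK cells, and Fam19a1 had 91.9 CPM in PV cells, 13.3 CPM in CCK cells and 327 CPM in CA1 pyramidal cells. With 1 sample a type, these are values without a test. They were not recomputed without the highest cell of each type, a step that reversed the subiculum differences of Cbln4 and Nxph1.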
